A study of Mus musculus with 18 samples.

Results

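The subject is the set of well-counted genes of mouse N2A cells after knockdown (KD) of *Fmr1* with either of 2 siRNAs, and above all the genes and pathways that moved in the same direction with both siRNAs. A gene was taken as well counted when its mean was 50 or more counts over the 18 libraries of the series, which held for 12110 of the 55414 genes of the deposited table. This rule does not use the contrast between KD and control. The genes were then sorted by that contrast itself: a gene was called at a Benjamini-Hochberg adjusted p below 0.05 in edgeR's quasi-likelihood test of *Fmr1* KD against Scramble KD with the siRNA letter as a block, and it moved the same way when its log2 fold change had the same sign with siRNA A as with siRNA B. These 2720 genes were thus chosen by the fold changes and p-values of the contrast, and 1056 of them also passed the test with each siRNA separately. Their fold changes are therefore given as descriptions.

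FMRP, the protein encoded by *Fmr1*, is an RNA-binding protein that associates with polyribosomes, lowers translation of many neuronal mRNAs and is missing in fragile X syndrome. Short interfering RNAs guide Argonaute proteins to cut a matching mRNA, and 2 siRNAs against different stretches of one mRNA share that target but not their other matches. N2A (Neuro-2a) is a mouse neuroblastoma line, a fast-growing tumor cell line with neuronal traits that takes much of its energy from glycolysis.

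All cells were N2A cells transfected with a Silencer Select siRNA by the lipid reagent RNAiMAX and harvested 72 h later. *Fmr1* KD used *Fmr1* siRNA A or *Fmr1* siRNA B, Scramble KD used 2 non-targeting siRNAs, Scramble A and Scramble B, and *Zfp598* KD, used here only as another knockdown, used 2 siRNAs against that E3 ubiquitin ligase of stalled ribosomes. Each siRNA had 3 libraries (A1 to A3 and B1 to B3), so that *Fmr1* KD and Scramble KD had 6 libraries each, made from total RNA after rRNA depletion. The letter links an *Fmr1* siRNA to a Scramble siRNA by label only. What separates the libraries of an siRNA (wells, days or passages) is not given in the sources used here, so p-values measure the spread between these libraries, which may be technical. With a whole cell extract, fewer cells of a kind and less RNA per cell cannot be told apart.

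Total counts were 13213653 to 14005697 in *Fmr1* KD, 12151589 to 15414590 in Scramble KD and 7674724 to 13360908 in *Zfp598* KD, and none of the 12110 genes was lost to the filter on low counts. The median standard error of a log2 fold change over these genes was 0.10. Of the neuroblastoma markers 11 were well counted. The summed level of the list was 1796 to 1912 CPM with Scramble A and 1289 to 1424 CPM with *Fmr1* siRNA A, and 1254 to 1395 CPM with Scramble B and 1507 to 1717 CPM with *Fmr1* siRNA B. In the separate fits 7 of the 11 were called lower with siRNA A (18% of all genes were) and 7 higher with siRNA B (19% of all genes). Their median log2 fold change was -0.66 with siRNA A and 0.33 with siRNA B. Against the Scramble siRNA of the other letter it was 0.04 and -0.03, and Scramble B differed from Scramble A by a median of -0.38. The part of this in the results was not tested. Library *Fmr1* KD B1 stood apart: 11 low-count stem cell genes summed to 41.5 CPM (the count scaled to the library's size) and all 11 had counts, against sums of 0.987 to 2.98 CPM and 2 to 5 genes with counts in the other libraries, and 4 Y-linked genes summed to 11.6 CPM against at most 0.149 CPM elsewhere. The part of this in the results was not tested, and the overall counts and those of several gene lists are given below without that library too. At the threshold itself, *Dync2i1* (mean 50 counts, log2 fold change 0.13) and *Gm13171* (50.1 counts, 0.03) were the last genes inside, and *Naaladl1* (49.9 counts, 0.01) and *2310015A10Rik* (49.9 counts, -0.02) the first outside. Of the 12110, 76 reached a mean of 50 in *Fmr1* KD and not in Scramble KD, and 43 the reverse.

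*Fmr1* (ENSMUSG00000000838, chrX:67722124-67761578 on GRCm39, plus strand) was measured at 59.3, 54.9 and 51.1 CPM with Scramble siRNA A and at 68.7, 65.4 and 61.8 CPM with Scramble siRNA B. With *Fmr1* siRNA A it was at 15.7, 22.0 and 16.8 CPM, and with *Fmr1* siRNA B at 27.5, 25.1 and 27.0 CPM. All 6 KD libraries lay below all 6 controls, lower with siRNA A than with siRNA B. The log2 fold change was -1.44 ± 0.09 (SE), -1.60 with siRNA A and -1.29 with siRNA B, with an edgeR adjusted p of 2.97e-07. On log2 CPM with a pseudocount of 0.5 the difference was -1.43, and the two-sided exact permutation test of 6 against 6 libraries gave p = 0.00216, the smallest that its 924 splits allow. In *Zfp598* KD the *Fmr1* mRNA differed from Scramble KD by a log2 fold change of -0.01.

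Over the well-counted genes, 1116 were called higher (9.22% of all) and 1649 lower (13.6%) in *Fmr1* KD. Most changes were small. Only 21 of the rises and 45 of the falls were past 2-fold, and the medians over all well-counted genes stood at -0.01 (log2). Of the called genes, 1100 were higher and 1620 lower with both siRNAs, and 45 had opposite signs. With the test passed for each siRNA there were 377 rises (3.11%) and 679 falls (5.61%), with median log2 fold changes of 0.49 and -0.48. A change past 1.5-fold with each siRNA was found for 71 rises and 110 falls, and past 2-fold for 5 and 11. Without library *Fmr1* KD B1 the same calls numbered 910 and 1347, and 281 and 563 genes passed with each siRNA.

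How far 1 siRNA forecasts the other could be read from libraries that the choice did not use. Fitted on the 6 siRNA A libraries alone, 1555 genes were called higher (12.8%) and 2183 lower (18%). Of those rises 345 (22.2%) were called higher in the separate siRNA B libraries, where 19% of all well-counted genes were, and 287 (18.5%) were called lower. Of the falls with siRNA A, 640 (29.3%) were called lower in the siRNA B libraries, against 22.1% of all genes, and 526 (24.1%) were called higher. Read the other way, 15% of the 2295 rises with siRNA B were called higher with siRNA A (12.8% of all genes) and 22.9% lower, and 23.9% of its 2682 falls were called lower (18% of all) and 10.7% higher. The shares called in the same direction were above the background in each of the 4 readings. These are not 4 separate checks. Both ways of reading count the same 345 rises and 640 falls, so the siRNA B readings follow from the siRNA A readings. By sign alone, whether called or not, 52.1% of the siRNA A rises were also above 0 with siRNA B (47.7% of all genes were) and 53.3% of its falls below 0 (52.3%), while 48.4% of the siRNA B rises were above 0 with siRNA A (50%) and 58.6% of its falls below 0 (50%). The siRNA B rises thus stood below their background by sign. The shares in the opposite direction were below theirs for the rises with siRNA A (22.1% of all genes were lower with siRNA B) and for the falls with siRNA B (12.8%). They were above theirs for the falls with siRNA A (19%) and the rises with siRNA B (18%). Here too both ways of reading count the same 287 and 526 genes. Without library *Fmr1* KD A1 the shared rises and falls of these separate fits numbered 190 and 395, and without *Fmr1* KD B1 298 and 547.

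Across the 12110 genes the log2 fold changes with siRNA A and siRNA B, from separate fits that share no library, had a Pearson r of 0.042 and a Spearman rho of 0.065, a description over genes that are not independent. They had the same sign for 52.4% of the genes. A test of the difference between the siRNAs (interaction in edgeR) called 4248 of the genes (35.1%), including 849 of the 2720 that moved the same way, and 886 genes passed with each siRNA in opposite directions. The Scramble siRNAs themselves differed at 4525 genes. With the letters crossed (siRNA A against Scramble B, siRNA B against Scramble A), 929 of the 1056 genes kept their sign in both comparisons, 330 of the rises and 599 of the falls, but only 544 of the 1056 (51.5%) passed the test with each siRNA again. The level was without overlap between the 6 KD and the 6 control libraries for 342 genes above (2.82%) and 591 below (4.88%), and 201 and 424 of these were among the genes that passed with each siRNA.

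**Figure D1:**
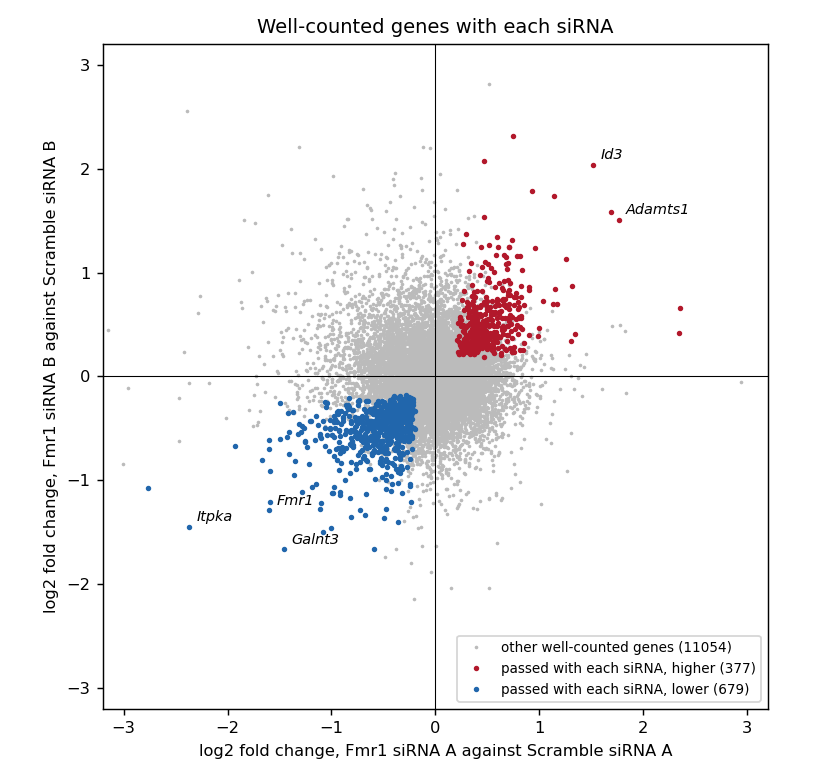
Log2 fold change of *Fmr1* KD against Scramble KD with siRNA A (horizontal axis) and with siRNA B (vertical axis), 1 point for each well-counted gene. The 377 rises (red) and 679 falls (blue) that passed with each siRNA fill the corners of equal sign by their definition, while the 11054 other genes (grey) form a round cloud with r = 0.042 over all genes and *Cxcl10* lies outside the axes.

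The rises that were largest in the weaker of the siRNAs were led by *Neurl3*, *Id3* and *Adamts1*. *Neurl3* (chr1:36303678-36313760), an E3 ubiquitin ligase of the neuralized family, was at 41.4, 29.9 and 45.8 CPM with Scramble A and 123, 116 and 139 CPM with *Fmr1* siRNA A, and at 11, 9.85 and 11.3 CPM with Scramble B and 31.6, 30.4 and 34.3 CPM with *Fmr1* siRNA B. Each siRNA raised it above its own control by a similar factor (log2 1.69 and 1.59), although the siRNA B libraries reached only the level of the Scramble A controls. *Id3* (chr4:135870808-135873066), an inhibitor of basic helix-loop-helix transcription factors, ran from 2.63 to 5.90 CPM in Scramble KD (median 4.32) and from 12.4 to 15.9 CPM in *Fmr1* KD (median 14.2), without overlap (log2 1.77 ± 0.15, SE). *Adamts1* (chr16:85590579-85600009), a secreted metalloprotease, ran from 3.94 to 6.56 CPM (median 4.24) and from 10.2 to 20.2 CPM (median 14.5), again without overlap (log2 1.64 ± 0.13).

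Next in this order came *Pdlim3*, a PDZ and LIM domain protein of actin fibers (log2 1.14 with siRNA A and 1.74 with siRNA B), *Cmtm3*, a MARVEL domain membrane protein (1.26 and 1.13), *Tle2*, a Groucho-type corepressor (0.96 and 1.23), and *Nod1*, an intracellular sensor of bacterial peptidoglycan (0.93 and 1.79). *Cmtm3* was at 9.08 to 13.6 CPM in Scramble KD and 19.9 to 29.9 CPM in *Fmr1* KD, and *Nod1* at 4.15 to 11 and 16.2 to 22.2 CPM, both without overlap. The list closed with *Nfkbia*, *Cxcl10*, the EF-hand gene *Efcab12* (0.90 and 0.86), *Tle6* (1.15 and 0.84) and the TNF receptor relative *Tnfrsf22* (0.84 and 1.02). *Tle2* (chr10:81410395-81427475, plus strand) and *Tle6* (chr10:81426738-81436907, minus strand) overlap at their ends, and the strand setting of the counting is not given in the sources used here. None of these 12 rises lost its call when any single library was left out.

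Among the falls *Galnt3* stood first by the change with the weaker siRNA, ahead of *Fmr1* itself. *Galnt3* (chr2:65913110-65955482), an enzyme that starts mucin-type O-glycosylation, was at 51.8, 56.8 and 57.6 CPM with Scramble A and 67.4, 65.1 and 69.1 CPM with Scramble B, against 19.5, 21.0 and 20.0 CPM with *Fmr1* siRNA A and 18.5, 20.2 and 24.5 CPM with *Fmr1* siRNA B. Its log2 fold change was -1.56 ± 0.08 (SE), beside -1.44 for *Fmr1* itself, and the groups did not overlap. *Itpka* (chr2:119572740-119591984), the kinase of inositol trisphosphate, went from 3.58 to 8.69 CPM (median 7.38) in Scramble KD to 0.815 to 3.22 CPM (median 1.99) in *Fmr1* KD. The ranges did not meet (log2 -1.84 ± 0.23), but these are few counts. *Cdk19* (chr10:40215560-40359814), a kinase of the Mediator complex, was at 67.8 to 127 CPM (median 95.3) and 32.3 to 56.0 CPM (median 41.4), with log2 changes of -1.10 and -1.22 with the 2 siRNAs.

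The adaptor *Sh2b3* (Lnk), a brake on cytokine receptor signalling, fell from 134 to 242 CPM (median 174) to 56.2 to 109 CPM (median 85.9), a log2 change of -1.09 ± 0.06 (SE). The groups were apart for it, and also for the complement protease *Masp1* (14.4 to 21.1 against 6.29 to 9.75 CPM), the matrix protein *Matn3* (5.17 to 9.92 against 0.541 to 4.20 CPM), the zinc finger gene *Zc3h6* (34.5 to 49.8 against 16.7 to 22.0 CPM), the secreted *Fetub* (15.2 to 24.1 against 6.79 to 8.66 CPM) and *1810010H24Rik* (8.39 to 12.4 against 3.22 to 5.41 CPM). The remaining falls of this order, *Eno2* and *Ero1a*, belong to glycolysis and to the hypoxia response. All 12 falls, *Fmr1* among them, kept their call with each library left out in turn.

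Some of these genes moved in *Zfp598* KD too, a comparison that shares the Scramble libraries. Against Scramble KD with edgeR, *Masp1* had a log2 fold change of -1.34 in *Zfp598* KD (adjusted p = 0.00344) and -1.19 in *Fmr1* KD, *Zc3h6* -1.08 (0.00332) and -1.13, *Matn3* -1.38 (0.0192) and -1.74, *Fetub* -0.79 (0.00326) and -1.23, *Galnt3* -0.84 (4.23e-05) and -1.56, *Id3* 1.34 (0.000739) and 1.77, and *Tle6* 0.93 (0.0103) and 0.99. For *Adamts1* (0.24 in *Zfp598* KD), *Cmtm3* (0.11), *Cdk19* (-0.11) and *1810010H24Rik* (-0.22) no such change was called in *Zfp598* KD. Tested directly against *Zfp598* KD, *Fmr1* KD was higher by log2 1.41 for *Adamts1* (edgeR adjusted p = 4.42e-05) and 1.08 for *Cmtm3* (1.21e-05), and lower by -1.06 for *Cdk19* (0.000103).

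**Figure D2:**
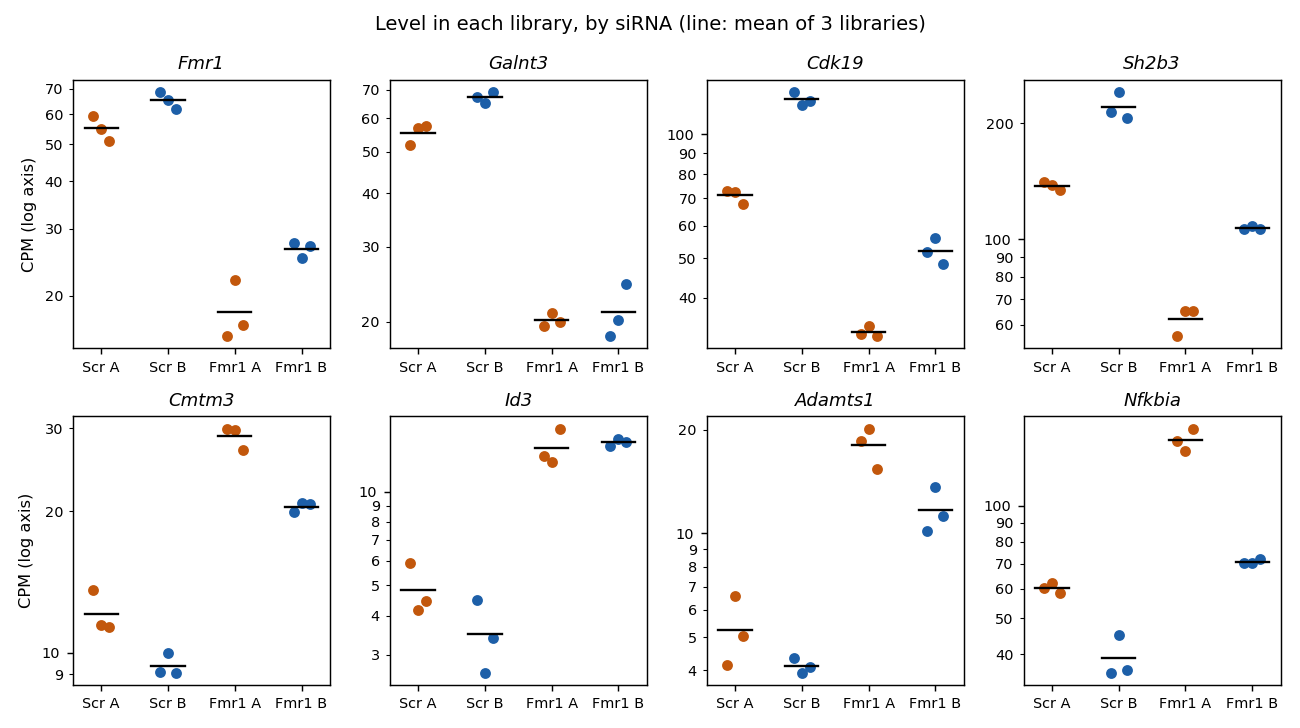
CPM on a log axis in each of the 12 libraries, by siRNA, for *Fmr1*, 3 of the falls and 4 of the rises, with a line at the mean of the 3 libraries of an siRNA. In all 8 genes each *Fmr1* siRNA lies on the same side of both Scramble siRNAs.

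Of all the gene lists, glycolysis had the largest share of members called lower (90%). Of the 20 well-counted members of a list of glycolytic enzymes and glucose or lactate carriers, 18 were called lower and none higher in *Fmr1* KD, against 13.6% of all well-counted genes called lower, and 11 passed with each siRNA. All 20 had a negative log2 fold change with both siRNAs. The list's median was -0.65, deeper with siRNA A (-0.98) than with siRNA B (-0.40), beside -0.01 over all genes. Against the Scramble siRNA of the other letter the medians were -0.93 (siRNA A) and -0.45 (siRNA B). In the separate siRNA fits 18 members were called lower with siRNA A and 11 with siRNA B. Without library *Fmr1* KD B1, 17 were called lower.

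*Eno2*, the neuronal form of enolase, was at 311 to 665 CPM (median 537) in Scramble KD and at 176 to 236 CPM (median 192) in *Fmr1* KD. The groups did not overlap, although library Scramble KD B3 lay far below the other controls (log2 -1.40 ± 0.14, SE, edgeR adjusted p = 1.97e-05). *Pgk1*, phosphoglycerate kinase, went from 526 to 1003 CPM (median 682) down to 222 to 505 CPM (median 312), with log2 changes of -1.37 with siRNA A and -0.95 with siRNA B. At the top of the pathway the glucose transporter *Slc2a1* was at 35.7 to 110 CPM (median 87.8) in Scramble KD and 23.5 to 64.2 CPM (median 40.6) in *Fmr1* KD, with overlap (log2 -1.10 ± 0.26, adjusted p = 0.00976). Hexokinase *Hk2* fell by 0.63 on the log2 scale (adjusted p = 0.019), mostly with siRNA A (-1.10, against -0.16 with siRNA B).

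The phosphofructokinases differed in how far the siRNAs went together. *Pfkp* fell alike with both (-0.60 and -0.58), from 383 to 520 CPM to 274 to 332 CPM without overlap, whereas *Pfkl* had -1.45 with siRNA A and -0.26 with siRNA B. Aldolase *Aldoa* went from 1466 to 2823 CPM to 897 to 1326 CPM, also apart, with a log2 change of -0.88 ± 0.15 (SE). *Gapdh*, often taken as a constant reference, was at 1488 to 1865 CPM (median 1580) in Scramble KD and at 985 to 1203 CPM (median 1032) in *Fmr1* KD, a log2 change of -0.62 ± 0.07 with an edgeR adjusted p of 6.78e-05. At the end of the pathway pyruvate kinase *Pkm* fell by 0.57, lactate dehydrogenase *Ldha* by 0.63 and the lactate carriers *Slc16a3* and *Slc16a1* by 0.81 and 0.54 on the log2 scale. The members that did not pass were *Hk1* (log2 -0.09 ± 0.07) and the neuronal glucose transporter *Slc2a3* (-0.33 ± 0.15). Many of these genes, among them *Gapdh*, *Pgk1*, *Pgam1*, *Ldha*, *Tpi1*, *Aldoa*, *Eno1* and *Pkm*, have near-identical pseudogenes, and how reads that match several places were counted is not given in the sources used here.

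Many glycolytic genes are also targets of the hypoxia response, in which the HIF transcription factors bind short DNA elements when oxygen is low. Of 16 well-counted members of a list of other hypoxia-induced genes, 13 were called lower and 1 higher (13.6% and 9.22% of all genes), and 4 of the falls passed with each siRNA (5.61% of all genes). The list's median was -0.77, with -0.93 for siRNA A and -0.39 for siRNA B, and -0.94 and -0.41 with the letters crossed. *Vegfa*, the angiogenic growth factor, fell from 345 to 408 CPM (median 373) to 195 to 270 CPM (median 230) without overlap (log2 -0.69 ± 0.08, SE, edgeR adjusted p = 4.04e-05). *Ero1a*, the oxidase that makes disulfide bonds in the endoplasmic reticulum (ER), was at 231 to 598 CPM (median 429) in Scramble KD and 120 to 249 CPM (median 187) in *Fmr1* KD. Its ranges met only through library Scramble KD B3, the lowest control (log2 -1.11 with siRNA A and -1.28 with siRNA B). *P4ha1*, a collagen prolyl hydroxylase, fell by 0.87 on the log2 scale and the stress gene *Ndrg1* by 1.07, with both siRNAs.

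Other members had larger values with siRNA A, and 7 of the 16 had a called difference between the siRNAs. The vasodilator peptide gene *Adm* had log2 changes of -3.01 and -0.84 at only 0.611 to 11.4 CPM, the mitophagy receptor *Bnip3* -2.47 and -0.62, and *P4ha2* -2.02 and -0.40. *Pdk1*, a kinase that inhibits pyruvate dehydrogenase, had -3.15 with siRNA A and 0.45 with siRNA B and was not called (edgeR adjusted p = 0.16). *Pfkfb4* was the member called higher (log2 0.52 ± 0.16, SE), with 0.03 under siRNA A and 1.01 under siRNA B. In *Zfp598* KD the medians of the hypoxia and glycolysis lists were 0.04 and -0.06 against the same Scramble libraries. Tested directly, 14 of 20 glycolysis members and 9 of 16 hypoxia members were lower in *Fmr1* KD than in *Zfp598* KD, beside 6.83% of all genes.

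**Figure D3:**
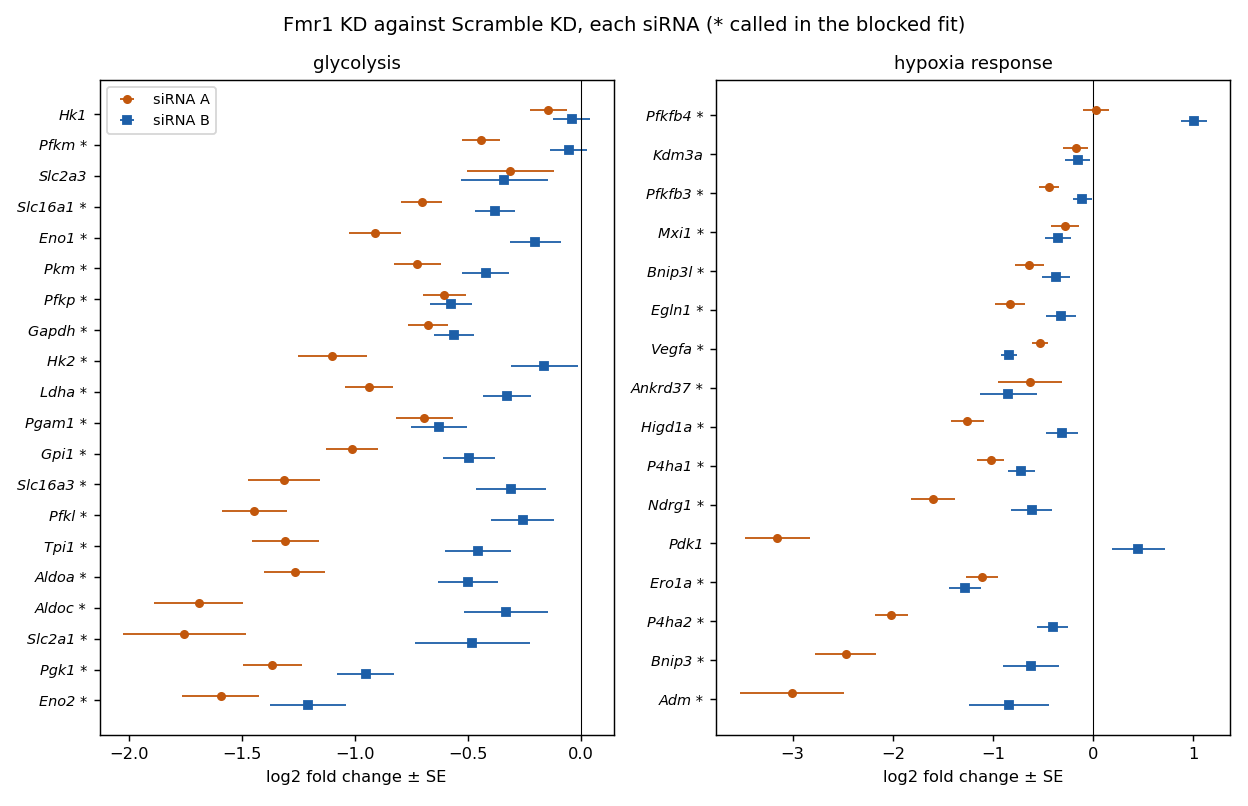
Log2 fold change ± SE of *Fmr1* KD against Scramble KD with siRNA A (orange circles) and siRNA B (blue squares) for each well-counted member of the glycolysis and hypoxia lists, an asterisk marking members called in the fit of both siRNAs. All 20 glycolysis members lie left of 0 with both siRNAs, while *Pdk1* and *Pfkfb4* stand apart in the hypoxia list.

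The core of the hypoxia response element was read in the 250 bases before the annotated start of each gene (GENCODE M39, GRCm39), in its form GACGTGC or TACGTGC on either strand. GACGTGC was present for 191 of 12083 well-counted genes (1.58%), for 1.33% of the rises and 2.06% of the falls that passed with each siRNA, and TACGTGC for 0.844% of all. In the hypoxia list 3 and 2 of 16 genes held them and in the glycolysis list 2 and 1 of 20, and each of these 8 genes was called lower with the same sign for both siRNAs. The stretches are shown because they set the element beside genes that fell together. They are written in the direction of the gene with the element in capitals (GCACGTC is GACGTGC on the opposite strand), with shorter stretches where an exon of another annotated transcript overlaps. *P4ha2*, *Ldha*, *Bnip3l* and *Mxi1* are outside the rule for named genes and were chosen for this sequence after their values were seen.
Ero1a, chr14:45556057-45556123, minus strand, log2 -1.19: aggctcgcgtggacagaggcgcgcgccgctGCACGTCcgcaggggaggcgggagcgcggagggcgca
Pgk1, chrX:105230544-105230610, plus strand, log2 -1.16: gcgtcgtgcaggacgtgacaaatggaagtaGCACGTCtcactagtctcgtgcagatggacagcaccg
Bnip3l, chr14:67246441-67246507, minus strand, log2 -0.50: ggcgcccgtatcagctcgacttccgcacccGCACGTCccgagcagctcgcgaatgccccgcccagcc
Mxi1, chr19:53317747-53317813, plus strand, log2 -0.32: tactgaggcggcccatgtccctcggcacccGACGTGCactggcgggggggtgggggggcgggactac
Ankrd37, chr8:46453093-46453155, minus strand, log2 -0.75: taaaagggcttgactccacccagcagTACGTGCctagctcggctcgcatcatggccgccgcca
Ldha, chr7:46495183-46495209, plus strand, log2 -0.63: gtgggttcccGCACGTCcgctgggctc
Pgam1, chr19:41900185-41900211, plus strand, log2 -0.66: gctccttgctTACGTGCgctccgtgac
P4ha2, chr11:53991661-53991687, plus strand, log2 -1.20: gtgcatcgcaTACGTGCagcgcgtggc
A match of letters is a description and not a binding site, and the other genes of the lists lack these letters in this window only.

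Genes of protein folding in the ER were another list with many members called lower. These proteins fold secretory proteins and, when folding fails, are raised by the unfolded protein response through ATF6, XBP1 and PERK (*Eif2ak3*). Of 23 well-counted members 14 were called lower and 1 higher (13.6% and 9.22% of all genes), and 10 falls passed with each siRNA (5.61% of all genes). The median was -0.41 (-0.29 with siRNA A and -0.46 with siRNA B, and -0.32 and -0.51 with the letters crossed), 18 members were below 0 with both, and 11 had a called difference between the siRNAs. Leaving out library *Fmr1* KD B1 left the count at 14.

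*Calr*, the lectin chaperone calreticulin, was at 367 to 493 CPM (median 379) in Scramble KD and at 217 to 267 CPM (median 234) in *Fmr1* KD. *Hsp90b1*, the ER form of HSP90, went from 464 to 626 CPM (median 535) to 288 to 377 CPM (median 319), and the co-chaperone *Dnajc3* from 47.6 to 59.9 CPM to 27.2 to 36.6 CPM. None of the 3 had overlapping groups, and their log2 changes were -0.74 ± 0.08 (SE), -0.73 ± 0.07 and -0.76 ± 0.08 with edgeR adjusted p-values of 2.71e-05, 1.6e-05 and 4.04e-05. For each of them the siRNAs gave nearly equal values (-0.70 and -0.79 for *Calr*, -0.69 and -0.77 for *Hsp90b1*). The transcription factor *Xbp1* fell by 0.57 on the log2 scale, from 134 to 156 CPM to 79.5 to 109 CPM.

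The most abundant chaperone of the lumen, *Hspa5* (BiP), was at 605 to 1127 CPM (median 741) in Scramble KD and at 305 to 593 CPM (median 487) in *Fmr1* KD. Its groups were apart, but the fall came mostly from siRNA B (log2 -1.35, against -0.19 with siRNA A). The sensor *Ern1* had the same pattern (-1.06 and -0.18), while *Sdf2l1* leaned to siRNA A (-0.82, against -0.28). The sensor *Atf6* had 0.36 with siRNA A and -1.27 with siRNA B and was not called. *Sec61b*, a subunit of the translocation channel, was the member called higher (log2 0.61 ± 0.17, SE, edgeR adjusted p = 0.024) and shares sequence with pseudogenes. In *Zfp598* KD the list's median was -0.18, and directly against that KD 7 of the 23 members were lower in *Fmr1* KD, beside 6.83% of all genes.

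The whole ER stress response element (CCAAT, 9 bases, CCACG, on either strand) was added to the search after the values were seen. It was present before the start of 16 of 12083 well-counted genes (0.132%), 8 of them in this list. It was found for none of the 377 rises and for 8 of the 679 falls (1.18%) that passed with each siRNA. Its shorter part CCACG, which the whole element contains, was present for 37.9% of all genes and for 16 of the 23 members. The elements are shown with 5 bases on either side, in the direction of the gene, with the element in capitals (in the reverse orientation it reads CGTGG, 9 bases, ATTGG). *Hspa5*, *Canx*, *Pdia6*, *Creld2* and *Syvn1* were again chosen for their sequence.
Hspa5, chr2:34662032-34662060, plus strand, log2 -0.77: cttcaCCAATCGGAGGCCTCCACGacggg
Dnajc3, chr14:119175234-119175262, plus strand, log2 -0.76: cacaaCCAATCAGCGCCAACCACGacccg
Calr, chr8:85573699-85573727, minus strand, log2 -0.74: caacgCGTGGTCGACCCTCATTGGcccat
Hsp90b1, chr10:86541392-86541420, minus strand, log2 -0.73: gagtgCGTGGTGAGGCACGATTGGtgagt
Pdia6, chr12:17316487-17316515, plus strand, log2 -0.53: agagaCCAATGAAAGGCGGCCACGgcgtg
Canx, chr11:50216622-50216650, minus strand, log2 -0.41: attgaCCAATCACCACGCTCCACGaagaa
Syvn1, chr19:6096557-6096585, plus strand, log2 -0.17: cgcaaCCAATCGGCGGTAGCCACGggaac
Creld2, chr15:88703718-88703746, plus strand, log2 -0.16: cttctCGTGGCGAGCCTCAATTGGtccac
*Hspa5* to *Canx* were called lower with the same sign for both siRNAs, while *Syvn1* and *Creld2* hold the element and were not called.

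Of the NF-kB genes more were called higher than lower, though the rise of the list depended on the control. NF-kB is a family of transcription factors held in the cytoplasm by inhibitors such as NFKBIA, which are themselves among its targets. Of 12 well-counted members, 6 were called higher (9.22% of all genes were) and 1, *Birc2*, lower, and 3 rises passed with each siRNA. The median was 0.41, with 0.29 for siRNA A and 0.37 for siRNA B. With the letters crossed it was 0.70 for siRNA A and -0.07 for siRNA B, and 6 were again called higher without library *Fmr1* KD B1. *Nfkbia* was at 60.3, 62.0 and 58.5 CPM with Scramble A and 149, 140 and 161 CPM with *Fmr1* siRNA A, and at 35.7, 45.0 and 36.4 CPM with Scramble B and 70.4, 70.4 and 71.8 CPM with *Fmr1* siRNA B. Every KD library was above every control (log2 1.09 ± 0.09, SE, edgeR adjusted p = 4.03e-06). In *Zfp598* KD it was higher too, by log2 0.57 (adjusted p = 0.0196).

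The precursor gene *Nfkb2* rose from 25.9 to 30.7 CPM (median 28.1) to 35.9 to 44.8 CPM (median 38.9) and *Nfkb1* from 25.9 to 37.9 CPM to 40.9 to 48.0 CPM. Both were without overlap, with log2 changes of 0.47 each, but *Nfkb1* moved mainly with siRNA B (0.81, against 0.14). *Rela* (log2 0.47) and the adaptor *Tnip1* (0.37) rose with overlapping ranges, and so did the inhibitor *Nfkbie* (0.55). The targets *Tnfaip3*, *Relb*, *Ier3* and *Rel* were higher with siRNA A (0.91, 0.43, 0.37 and 0.15) and lower with siRNA B (-0.13, -0.14, -0.39 and -0.40), and none of these 4 was called. Sites that match the NF-kB consensus stood before 7.81% of all well-counted genes and before 5 of the 12 members. Of these 5, *Nfkbia* and *Nfkbie* were called higher, while *Tnfaip3*, *Relb* and *Ier3* hold a site and were not called. The stretches are shown for the 2 called inhibitors only, with the site in capitals.
Nfkbia, chr12:55539433-55539491, minus strand, log2 1.09: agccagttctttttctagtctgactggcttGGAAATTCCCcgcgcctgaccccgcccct
Nfkbie, chr17:45866490-45866559, plus strand, log2 0.55: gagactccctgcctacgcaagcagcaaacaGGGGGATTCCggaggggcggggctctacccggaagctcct
*Nfkbie* is outside the rule for named genes and was chosen for its sequence.

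**Figure D4:**
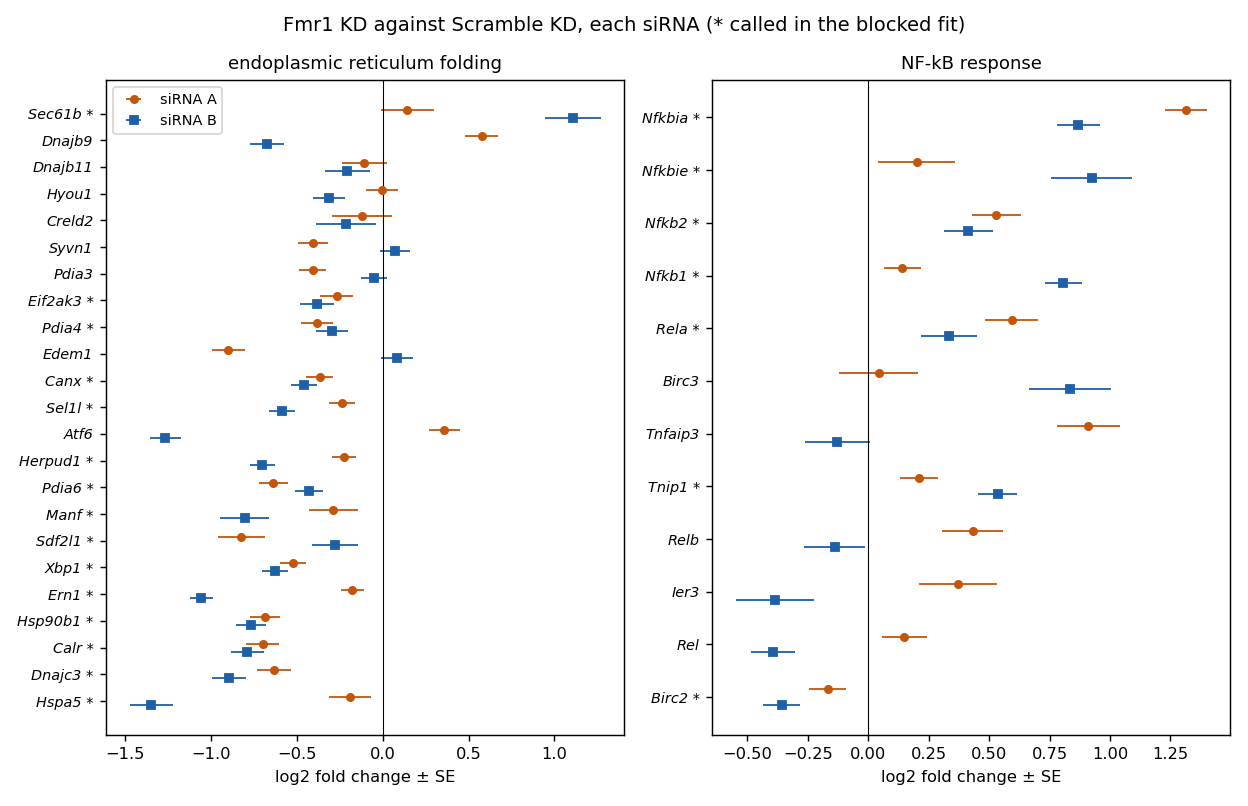
Log2 fold change ± SE with siRNA A (orange circles) and siRNA B (blue squares) for each well-counted member of the endoplasmic reticulum folding and NF-kB lists, an asterisk marking members called in the fit of both siRNAs. *Calr*, *Hsp90b1*, *Dnajc3* and *Xbp1* lie far left with both siRNAs, *Nfkbia* far right, and *Atf6*, *Edem1* and *Tnfaip3* change side between siRNAs.

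In the separate fits 9 of 24 interferon-induced genes were called higher with siRNA A (12.8% of all genes were) and 2 with siRNA B (19% of all genes), and this difference between counts was not tested. With siRNA A 5 were called lower (18% of all genes were) and with siRNA B 1 (22.1%). In the fit of both 7 were called higher (29.2%) and 2 lower (8.33%), beside 9.22% and 13.6% of all genes. Only 1 of them, *Cxcl10*, passed with each siRNA. This chemokine was at 33.6, 32.2 and 33.6 CPM with *Fmr1* siRNA A and at 1.08, 0.980 and 1.72 CPM with *Fmr1* siRNA B, against 1.76, 1.32 and 1.13 CPM with Scramble A and 0.658, 0.657 and 0.703 CPM with Scramble B. The siRNA B libraries were above Scramble B but not above the highest Scramble A library (log2 -0.13 against Scramble A), and the change with siRNA B was lower than that with siRNA A by a log2 of -3.67. *Isg15* had log2 changes of 1.83 with siRNA A and 0.43 with siRNA B, and *Oasl2* 1.77 and 0.50. *Mx1* and the peptide transporter *Tap1* went down (-0.88 and -0.55). The median of the list was 0.13 (0.07 with siRNA A and 0.13 with siRNA B), beside -0.01 over all genes. With the letters crossed it was 0.36 for siRNA A and -0.21 for siRNA B.

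The ATF4 response, which raises amino acid synthesis and transport when eIF2 is phosphorylated, was split by siRNA. Of 29 well-counted members 9 were called lower (31%) and 2 higher (6.9%), beside 13.6% and 9.22% of all genes. The median was 0.05 with siRNA A and -0.59 with siRNA B. The falls that passed with each siRNA were *Trib3*, *Gdf15*, *Cebpg* and *Chac1*. *Trib3*, a pseudokinase that restrains ATF4, went from 216 to 385 CPM (median 300) to 102 to 183 CPM (median 136), and the cytokine *Gdf15* from 53.7 to 98.1 CPM to 31.4 to 47.4 CPM. Neither pair of ranges met, and the log2 changes were -1.12 ± 0.16 (SE) and -0.94 ± 0.14. *Cebpg*, a partner of ATF4, had the steadiest fall, from 170 to 185 CPM to 96.4 to 116 CPM (-0.80 with siRNA A and -0.62 with siRNA B, edgeR adjusted p = 4.56e-06). *Atf4* itself fell by 0.38 on the log2 scale. *Slc7a11*, the cystine importer, rose from 33.6 to 45.6 CPM to 49.8 to 228 CPM (log2 2.34 with siRNA A and 0.42 with siRNA B). Without library *Fmr1* KD B1, 6 members were called lower, and without Scramble KD A1, 14.

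Among 31 translation factors 10 were called lower (32.3%, beside 13.6% of all genes) with the same sign for both siRNAs. With each siRNA 4 falls passed (5.61% of all genes). The initiation factor *Eif1* went from 639 to 1027 CPM (median 821) to 484 to 547 CPM (median 519), and *Eif4b*, a cofactor of the helicase eIF4A, from 831 to 1150 CPM (median 988) to 604 to 829 CPM (median 716). Both groups were apart (log2 -0.64 ± 0.09 and -0.45 ± 0.06, SE). *Eif2s2* and *Eif4a2* fell by 0.35 and 0.32 on the log2 scale. The median of the whole list was -0.04, so that these falls stood within a list centred near 0. The member called higher was *Eif2s3x*, with 1.31 for siRNA A and -0.000327 for siRNA B. None of the 32 ribosomal protein genes was called, with a median of -0.05 (0.06 with siRNA A and -0.18 with siRNA B). Of 20 cytosolic tRNA synthetases 3 were called lower (15%, beside 13.6% of all genes), none with each siRNA. This list was split by siRNA, with a median of 0.16 with siRNA A and -0.37 with siRNA B. The separate siRNA A fit called 6 higher and 0 lower (12.8% and 18% of all genes). That of siRNA B called 1 higher and 14 lower (19% and 22.1%). A difference between the siRNAs was called for 15 of the 20.

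Mitotic genes fell modestly with each siRNA against its own control. Of 24 well-counted members 12 were called lower (50%, beside 13.6% of all genes) and none higher. With each siRNA 8 falls passed (5.61% of all genes), and the median was -0.23 (-0.28 and -0.22). *Top2a*, the topoisomerase that untangles chromosomes, was at 399 to 901 CPM (median 643) in Scramble KD and 277 to 635 CPM (median 460) in *Fmr1* KD. The ranges overlapped widely because the Scramble siRNAs lay apart by log2 1.02, yet the changes were alike (-0.55 and -0.47, edgeR adjusted p = 6.01e-05). *Birc5* (survivin), the checkpoint kinase *Ttk* and the phosphatase *Cdc25c* had the same pattern (-0.50, -0.46 and -0.55). The direction depended on which Scramble siRNA was taken as control. With the letters crossed the list's median was -1.11 for siRNA A and 0.58 for siRNA B, and the Scramble siRNAs differed by a median of 0.83. Of 36 DNA replication genes 2 were called higher (5.56%) and 3 lower (8.33%), beside 9.22% and 13.6% of all genes. Their median was 0.18 with siRNA A and -0.18 with siRNA B, and -0.79 and 0.64 with the letters crossed. *Mcm6*, a subunit of the replicative helicase, was at 37.4 to 70.4 CPM in Scramble KD and 72.3 to 99.6 CPM in *Fmr1* KD (log2 0.69 ± 0.08), and rose in *Zfp598* KD as well (0.64, adjusted p = 0.00124).

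In the separate fits 11 of 15 genes of the extracellular matrix were called higher with siRNA B (19% of all genes were) and 2 with siRNA A (12.8% of all genes), a difference between counts that was not tested. With siRNA A 4 were called lower (18% of all genes were) and with siRNA B 0 (22.1%). In the fit of both 6 were called higher (40%, beside 9.22% of all genes) and 1, the lysyl hydroxylase *Plod2*, lower. The median was 0.07 with siRNA A and 0.53 with siRNA B. With the letters crossed it was 0.30 for siRNA A and 0.15 for siRNA B, and the Scramble siRNAs differed by a median of -0.46. *Fbn1*, the microfibril protein fibrillin, passed with each siRNA, from 8.43 to 16.0 CPM (median 11.6) to 21.2 to 47.5 CPM (median 34.4). Its groups were apart (log2 0.75 with siRNA A and 2.32 with siRNA B), and it rose in *Zfp598* KD as well (1.09, edgeR adjusted p = 0.00795). The collagens *Col18a1*, *Col4a1* and *Col6a1* were called higher with larger changes for siRNA B (0.81, 0.86 and 1.79) than for siRNA A (0.28, 0.13 and 0.21).

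The receptor pathways had members called in both directions. In the BMP and TGF-beta list 4 of 22 were called higher (18.2%) and 3 lower (13.6%), beside 9.22% and 13.6% of all genes, with a median of -0.04. *Id3* and the receptor SMAD *Smad1* (log2 0.40) rose with each siRNA. *Smad9*, a related SMAD, fell from 32.1 to 43.8 CPM (median 37.3) to 20.3 to 23.0 CPM (median 21.8), and the Hairy-related repressor *Hey1* from 25.3 to 36.9 CPM to 17.4 to 21.0 CPM. Neither gene's groups overlapped (log2 -0.79 ± 0.08 and -0.66 ± 0.09, SE). In the Notch and Wnt list 2 of 15 were higher and 4 lower (26.7%, beside 13.6% of all genes), among them the Wnt antagonist *Dkk1* (-0.38), the co-receptor *Lrp6* (-0.32) and beta-catenin, *Ctnnb1* (0.28). Of 21 targets of ERK signalling 6 were called lower (28.6%, beside 13.6% of all genes) and 1 higher. The ERK phosphatase *Dusp6* fell by 0.65 with similar values for each siRNA (-0.69 and -0.62), whereas the immediate early gene *Egr1* fell with siRNA B (-2.14) far more than with siRNA A (-0.21).

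In the fit of both siRNAs the antioxidant and pentose phosphate genes had rises and no called fall. Of 18 NRF2-regulated genes 4 were called higher (22.2%, beside 9.22% of all genes) and none lower. The list was split by siRNA, with a median of 0.37 with siRNA A and -0.11 with siRNA B. Crossing the letters gave 0.45 and -0.20. The separate siRNA A fit called 10 higher and 1 lower (12.8% and 18% of all genes). That of siRNA B called 3 higher and 7 lower (19% and 22.1%). A difference between the siRNAs was called for 11 of the 18. *Prdx1*, a peroxidase, was at 108 to 164 CPM (median 129) in Scramble KD and 154 to 203 CPM (median 186) in *Fmr1* KD (log2 0.48 ± 0.07, SE, edgeR adjusted p = 0.000223). The pentose phosphate enzymes *Pgd* (0.60), *Taldo1* (0.39) and *G6pdx* (0.25) rose, of which *Pgd* gave near-equal values with each siRNA (0.58 and 0.62). The call of *G6pdx* was lost on leaving out any of 4 libraries (*Fmr1* KD A1, A2 or B2, or Scramble KD A3), with an edgeR adjusted p of up to 0.211 over its alternatives. *Hmox1* had 1.27 with siRNA A and -0.91 with siRNA B. Of 28 proteasome genes 3 were called higher (10.7%, beside 9.22% of all genes) and none lower, with a median of 0.12. That median was 0.13 with siRNA A and 0.09 with siRNA B, and 0.26 and -0.07 with the letters crossed. *Psmd2* went from 268 to 316 CPM to 316 to 382 CPM, a log2 change of 0.31. Among 21 heat shock genes 4 rose, including *Hsph1* (0.44) and *Hsp90aa1* (0.43), and 3 fell, including *Hspe1* (-0.33). These are 19% and 14.3%, beside 9.22% and 13.6% of all genes.

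Of 20 well-counted relatives and partners of FMRP, *Fmr1*, *Ncl* and *Cyfip1* were called, 5% higher and 10% lower, beside 9.22% and 13.6% of all genes. *Cyfip1*, a partner of FMRP that links it to the cap-binding protein and to actin, was at 105 to 114 CPM (median 108) in Scramble KD and at 126 to 144 CPM (median 137) in *Fmr1* KD. The groups did not meet (log2 0.33 ± 0.06, SE, edgeR adjusted p = 0.00117). The paralogs *Fxr1* and *Fxr2* had log2 changes of -0.17 ± 0.07 and -0.06 ± 0.07 and were not called. The fall of nucleolin, *Ncl* (-0.25), lost its call on leaving out any of 9 libraries.

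Of 34 well-counted mRNAs known as neuronal targets of FMRP, 2 were called higher (5.88%) and 4 lower (11.8%), beside 9.22% and 13.6% of all genes. The median was 0.03, with -0.08 for siRNA A and 0.11 for siRNA B, and 0.06 and -0.10 with the letters crossed. The separate siRNA A fit called 2 higher and 11 lower (12.8% and 18% of all genes). That of siRNA B called 11 higher and 6 lower (19% and 22.1%). A difference between the siRNAs was called for 14 of the 34, beside 35.1% of all genes. The postsynaptic scaffold gene *Dlg4* (PSD-95) went from 211 to 251 CPM (median 225) to 159 to 194 CPM (median 166). The groups did not overlap (log2 -0.43 ± 0.07, SE). *Tsc2*, a brake on mTOR, rose from 68.7 to 76.6 CPM to 81.6 to 100 CPM (0.36 with siRNA A and 0.29 with siRNA B), and the scaffold *Shank2* by 0.62. *Arc* fell with siRNA A (-1.14) more than with siRNA B (-0.11). *Map1b*, a classic target, had a log2 change of 0.16 ± 0.10 and was not called.

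Factors that act on stalled ribosomes and on mRNA decay had calls in both directions. Of 19 genes of no-go decay and ribosome rescue *Skic2*, a helicase that feeds RNA to the exosome, was higher (log2 0.46), and *Ascc1* (-0.30) and the rescue GTPase *Hbs1l* (-0.28) were lower. These are 5.26% higher and 10.5% lower, beside 9.22% and 13.6% of all genes. *Hbs1l* was at 172 to 195 CPM in Scramble KD and 144 to 165 CPM in *Fmr1* KD, without overlap. Of 29 genes of the decay machinery 6 were lower (20.7%, beside 13.6% of all genes), among them the deadenylase *Cnot6l* (-0.53) and the decapping enzyme *Dcp2* (-0.48). The exosome subunit *Exosc4* was higher (0.41), which is 3.45% of the list, beside 9.22% of all genes. In the RNA interference machinery, through which every siRNA of the study acts, *Dicer1* went from 188 to 209 CPM (median 191) to 145 to 159 CPM (median 154), with -0.37 and -0.35 for the siRNAs, and *Ago3* fell by 0.54. The other 11 of the 13 well-counted genes of that list were not called, so that 15.4% were lower, beside 13.6% of all genes.

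Of 11 granin and neuropeptide genes 4 were called lower (36.4%, beside 13.6% of all genes) and none higher. With the letters crossed the median of that list was 0.04 for siRNA A and -0.38 for siRNA B. *Vgf*, a precursor of secreted peptides, was at 827 to 1143 CPM (median 1072) in Scramble KD and 423 to 783 CPM (median 617) in *Fmr1* KD. Its groups were apart (log2 -0.43 with siRNA A and -1.10 with siRNA B), and it fell in *Zfp598* KD as well (-0.83, edgeR adjusted p = 0.00344). The semaphorin receptor *Nrp2* fell from 235 to 288 CPM to 132 to 183 CPM (-1.06 and -0.50), and *Plxna4*, a plexin co-receptor of such receptors, rose (0.27 and 1.27). Complexins *Cplx1* (0.38) and *Cplx2* (0.76) rose while the vesicle proteins *Vamp2* (-0.37) and *Rab3a* (-0.53) fell. The tubulins *Tubb4b* and *Tubb5* fell by 0.61 and 0.45, of which *Tubb4b* was without overlap (158 to 229 against 106 to 138 CPM). *Gch1*, which makes the cofactor of catecholamine synthesis, fell from 244 to 294 CPM to 180 to 212 CPM. Of 14 p53 targets the called members divided, with *Aen* higher (0.41) and *Rrm2b* (-0.88), *Bbc3* (-0.60), *Trp53inp1* (-0.40) and *Cdkn1a* (-0.33) lower. These are 7.14% and 28.6%, beside 9.22% and 13.6% of all genes.

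Some pathways had opposite medians with the siRNAs, each against its own control, and few members called in the fit of both. All 24 well-counted cholesterol synthesis genes had a called difference between the siRNAs, with a median of -0.70 with siRNA A and 0.63 with siRNA B. Jointly 2 were higher and 2 lower, among them *Insig1*, the sterol-responsive retention protein, lower with both (-1.08 and -0.43). The 15 fatty acid synthesis genes had medians of -0.58 and 0.39, with no joint call. The opposite movement depended on the control: with the letters crossed the medians were -0.17 and 0.05 for cholesterol synthesis and -0.34 and 0.05 for fatty acid synthesis, and the Scramble siRNAs differed by -0.63 and -0.20. The genes with the largest opposite changes were *Eln*, which encodes elastin (log2 -2.39 with siRNA A and 2.56 with siRNA B), the semaphorin and growth factor receptor *Nrp1* (-1.31 and 2.21) and the matrix protein gene *Papln* (-1.62 and 1.74). *Nrp1* was at 92.0, 88.0 and 97.0 CPM with Scramble A and 22.0, 22.7 and 22.4 CPM with Scramble B, and at 35.0, 38.2 and 38.6 CPM with *Fmr1* siRNA A and 94.0, 107 and 107 CPM with *Fmr1* siRNA B. The Scramble siRNAs differed there by log2 -2.04. In the fit of both, the nuclear genes of the respiratory chain had none higher and 2 lower of 28 (7.14%), with a median of -0.06. The lysosome had 1 higher (4%) and 3 lower (12%) of 25, with a median of -0.05. These stand beside 9.22% and 13.6% of all genes, and no YAP target was called of 6. A difference between the siRNAs was called for 2 of the 28, 17 of the 25 and 4 of the 6 (35.1% of all genes). With siRNA A and siRNA B the lysosome medians were 0.12 and -0.16, and those of the YAP targets -0.21 and 0.30.

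**Figure D5:**
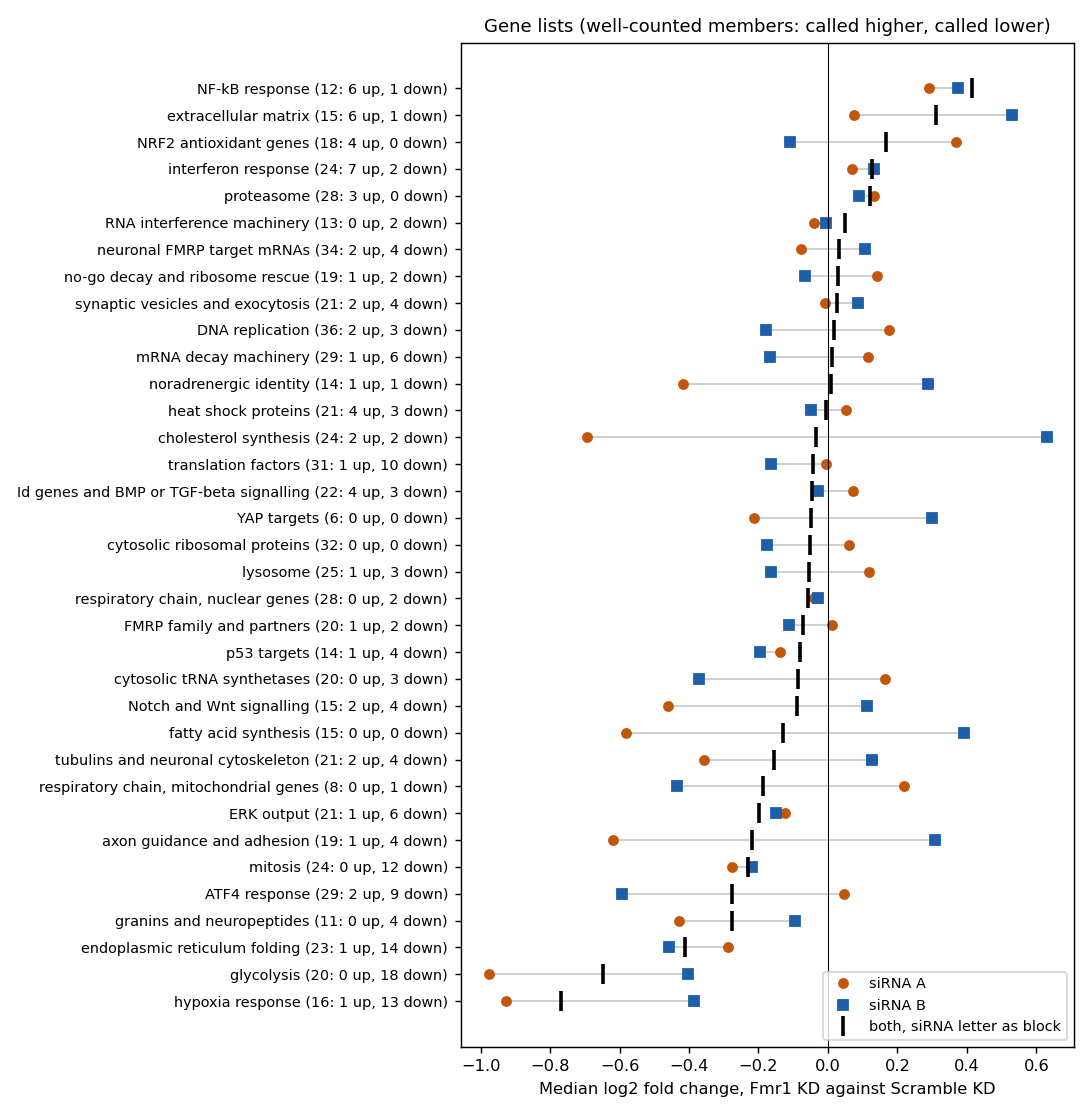
Median log2 fold change of *Fmr1* KD against Scramble KD over the well-counted members of each gene list, with siRNA A (orange circles), siRNA B (blue squares) and both with the letter as a block (black bars), beside the number of members and how many were called. Glycolysis, hypoxia and endoplasmic reticulum folding lie at the lower end with both siRNAs, NF-kB at the upper end, and cholesterol and fatty acid synthesis, ATF4 response and axon guidance stretch across 0.

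Directly against *Zfp598* KD with the letter as a block, 542 well-counted genes were higher (4.48%) and 827 lower (6.83%) in *Fmr1* KD. Of the 377 rises that passed with each siRNA against Scramble KD, 109 were also higher than in *Zfp598* KD, and of the 679 falls 286 were also lower. Both comparisons share the *Fmr1* KD libraries. *Fmr1* itself was lower by log2 -1.43 and *Ero1a* by -1.25, both with an edgeR adjusted p of 4.04e-06.

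The genes that passed with each siRNA are set beside the whole here in further features, as descriptions. The falls had a median mean count of 874, the rises 436 and all well-counted genes 448, a value that the rule for well-counted genes uses. The part of depth in the calls was not tested. Their summed exon length had a median of 7489 bases for falls, 6316 for rises and 6222 for all genes, and the GC content of the exons 46.5%, 49.9% and 48.4%. The share of rises was highest on chromosome 6 (5.21% of its well-counted genes) and lowest on the X chromosome (1.23%), leaving aside the Y chromosome and the mitochondrial genome, and falls were most frequent on chromosome 1 (7.73%) and on X (7.38%). Among other motifs in the 250 bases before the start, the E-box CACGTG was present for 7.5% of all genes, 8.22% of rises and 7.95% of falls, the cell cycle element TTTGAA for 12.8%, 13.8% and 16.2%, and NF-kB sites for 7.81%, 8.49% and 11%.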

How the data were processed

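N2A cells were profiled by RNA-seq in 18 libraries, of which the 6 of *Fmr1* KD and the 6 of Scramble KD carry the comparison. Group, siRNA and replicate come from the sample titles. The authors trimmed reads with TrimGalore, checked them with FastQC, used STAR for alignment to GRCm39 and assigned reads to exons with featureCounts. The deposited values are raw counts, 1 column a library, without normalization or pooling. The submitters' processing notes also name deepTools and DESeq2. The annotation release, strand setting and treatment of multiply matching reads are not given in the sources used here, which leaves genes with near-identical copies or overlaps uncertain. All count columns were used.

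The deposited counts were the input for CPM, fold changes and tests in R 4.3.3 and edgeR 4.0.16 (TMM library sizes, filterByExpr with a minimum count of 10 and a minimum total of 15, leaving 17901 genes, then glmQLFit and glmQLFTest). The main model held the siRNA letter and the condition. A model of 4 groups gave the change with each siRNA and their difference (interaction), and separate fits of 6 libraries gave the reading in libraries not used for the choice. Adjustment was by Benjamini-Hochberg over the whole tested table. Symbols, positions and upstream sequences come from GENCODE M39 on GRCm39, which held 12083 of the 12110 well-counted genes. No 2 libraries of an siRNA were as alike as sampling noise (the lowest ratio of chi-square to its degrees of freedom was 3.32). The tests were checked on simulated counts in which no gene had a KD effect that differed between the siRNAs. That check does not cover genes for which the siRNAs differ.

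The genes named are *Fmr1*, the 12 rises and 12 falls of protein-coding genes that passed with each siRNA and had the largest change in the weaker siRNA, up to 4 called members of each list by the same measure, and the 3 largest opposite changes. A few genes that these rules select are not reported here. Other members of a list are named to complete its account, and were chosen after their values were seen. The well-counted genes, the gene lists, the motifs and these rules were chosen with earlier results of these data known. Alternatives covered normalization, filters, DESeq2 1.42.0, the blocks, the fold criterion, the mean count, each siRNA alone and leaving out each library. Total counts of 7674724 to 15414590 set the precision, and the intervals of a count model cover libraries and not molecules. The *Zfp598* KD changes against Scramble KD were used only as side values.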

Additional observations from a re-analysis of the deposited data

Results flagged for a closer look

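Among the named genes reported, 47 of 135 had a called difference between the changes with the 2 siRNAs (interaction in edgeR's quasi-likelihood test), given here as siRNA B minus siRNA A on the log2 scale. The difference was positive for *Eln* (4.95), *Nrp1* (3.52), *Papln* (3.36), *Adm* (2.17), *Matn3* (1.69), *Col6a1* (1.58), *Fbn1* (1.57), *Cplx2* (1.23), *Fzd2* (1.18), *Mx1* (1.01), *Stard4* (1.01), *Plxna4* (1.00), *Cox7c* (0.874), *Nrcam* (0.866), *Nod1* (0.853), *Pdgfrb* (0.846), *Shank2* (0.842), *Rab3a* (0.775), *Nefh* (0.756), *Col4a1* (0.733), *Mycn* (0.730), *Insig1* (0.650), *Gdf15* (0.633), *Pdlim3* (0.596), *Nrp2* (0.563), *Col18a1* (0.529), *Skic2* (0.486), *Tubb5* (0.432) and *Tnip1* (0.326). It was negative for *Cxcl10* (-3.67), *Egr1* (-1.93), *Slc7a11* (-1.92), *Isg15* (-1.39), *Oasl2* (-1.28), *Trib3* (-1.07), *Rrm2b* (-1.03), *Gars1* (-0.772), *Vgf* (-0.673), *Ccne2* (-0.672), *Sars1* (-0.600), *Yars1* (-0.558), *Eif1* (-0.557), *Atp6v1h* (-0.532), *Nfkbia* (-0.446), *Hsp90aa1* (-0.403), *Upf3a* (-0.403) and *Taldo1* (-0.396). Of these genes *Eln*, *Nrp1* and *Papln* were named for opposite changes, so that their difference follows from the choice.

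In 7 of 270 groups of 6 libraries 1 library lay far from the other 5, where chance alone marks about 1 group in 20. The gap to the nearest library, as a share of the whole range, was 0.722 for *Calr* in Scramble KD B3 (highest), 0.652 for *Eno2* in Scramble KD B3 (lowest), 0.813 for *Glb1* in *Fmr1* KD A2 (highest), 0.735 for *Hbs1l* in *Fmr1* KD B3 (highest), 0.743 for *Itpka* in Scramble KD A2 (lowest), 0.716 for *Masp1* in Scramble KD A1 (lowest) and 0.662 for *Pdgfrb* in Scramble KD B1 (lowest).

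Genes outside the comparison showed a signal in *Fmr1* KD B1, where 11 low-count stem cell genes summed to 41.5 CPM and 4 Y-linked genes to 11.6 CPM. The source of this RNA was not tested.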

How the results depend on the processing

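Under the alternatives run, the direction of no count or named gene fitted on both siRNAs reversed. With the letters crossed, which leaves the fit of both unchanged, 925 and 1371 genes moved the same way and 303 and 616 passed with each siRNA, but only 51.5% of the 1056 did so under both pairings. Crossing turned the siRNA B medians of mitosis to 0.58 and of NF-kB to -0.07, and *Cxcl10* with siRNA B to -0.13. It also turned the siRNA B medians of interferon genes (0.13) to -0.21, of DNA replication (-0.18) to 0.64 and of the proteasome (0.09) to -0.07. Other lists changed sign as well, among them the neuronal FMRP targets (0.11 to -0.10 with siRNA B). With the RLE size factors 99.9% of the called genes kept their call, with upper-quartile factors 92.2%, with DESeq2 100% (3227 calls, 1328 higher and 1899 lower), with no filter 83.4% (ATF4 response 18 lower), with all 18 libraries in the fit 56.4% and without the letter block 53.9%.

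With all 18 libraries, 595 genes were higher and 967 lower, 583 and 956 the same way, 220 higher with each siRNA, and 4 mitosis and 5 ATF4 members were lower and 2 NRF2 members higher. Without the letter block, 569 were higher and 920 lower, 563 and 917 the same way, with 8 hypoxia, 1 mitosis, 5 ATF4 and 5 translation members lower and 3 NF-kB and 4 interferon members higher. Against *Zfp598* KD it gave 294 and 501.

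A change past 1.5-fold left 209 higher and 340 lower, 202 and 334 the same way, 121 and 226 with each siRNA, 5 ER folding, 1 mitosis, 5 ATF4 and 1 translation member lower and 1 NF-kB, 3 matrix and 1 NRF2 member higher. Past 2-fold there were 21 and 45, 19 and 45 the same way and 15 and 31 with each siRNA. The lists then held 3 glycolysis, 5 hypoxia, 2 ATF4 and 0 ER folding, mitosis and translation members lower, and 1 NF-kB, 4 interferon, 1 matrix and 0 NRF2 members higher. A mean of 100 counts left 4 interferon members. The siRNA A libraries alone gave 5 ATF4, 2 matrix and 10 NRF2 members, and the siRNA B libraries alone 11 glycolysis, 7 hypoxia, 25 ATF4, 2 interferon and 11 matrix members. The cause of these shifts was not tested, beyond the fewer libraries or stricter limit that each sets.

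On leaving out each library in turn, 846 to 1072 genes were higher and 1328 to 1611 lower, and 266 to 441 and 540 to 764 passed with each siRNA. ATF4 members called lower ranged from 6 to 14. Without *Fmr1* KD B1, 11 hypoxia, 11 mitosis and 8 translation members were called lower, and 7 interferon, 5 matrix and 5 NRF2 members higher. The siRNA A rises called higher with siRNA B ranged from 190 to 392 and the falls from 395 to 761, and the siRNA B shares from 8.28% to 17.1% for rises and 14.7% to 28.4% for falls, the lowest without *Fmr1* KD A1. The 24 leading genes lost no call, while *Psmc4* lost its call in 11 of 12 such fits, *Atp5pb* in 10 and *Ncl*, *Mycn*, *Plxna3* and *Stard4* in 9.

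Replicate numbers were not taken to pair the samples, since not every pair passed a correlation of 0.1: the deviations of equally numbered libraries had correlations of 0.023, 0.541 and 0.246 (A1 to A3) and 0.086, 0.133 and 0.145 (B1 to B3), and A2, B1, B2 and B3 correlated best with their own number while A1 and A3 did so with each other's, a hint from the data and not from the design. With the replicate number as a block (6 pairs), 722 genes were higher and 1121 lower, 722 higher the same way, with 6 translation and 3 matrix members called, and 65.6% of the called genes kept their call. Against *Zfp598* KD this block gave 298 and 464. At 7674724 to 15414590 counts a library, genes near the mean of 50 counts have the least power.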
